A study of Homo sapiens with 6 samples.

Results

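Described here are 9 human genes of iron-sulfur cluster assembly and of the CDGSH iron-sulfur domain (CISD) family, among 61806 genes in the table: NFS1, ISCU, LYRM4, FDX1, FDX2, GLRX5, CISD1, CISD2 and CISD3. They were chosen by gene symbol for their roles, with their counts and FPKM values in both groups already known, and each symbol matched 1 row. Their own changes are therefore given as a description without a test, and "called" only says on which side of the threshold (edgeR adjusted p under 0.05 over all tested genes) a gene lay. The libraries came from HCT116, an established human colorectal carcinoma cell line with an epithelial origin. The si-NC group, labelled wildtype, held 3 libraries of cells given a control short interfering RNA, and the si-STRIP2 group, labelled STRIP2 knockdown, held 3 libraries of cells given one against STRIP2. The number of interfering RNAs per gene and the time after transfection are not given in the sources used here, nor is it stated whether replicate libraries came from separate cultures, so their spread may be technical.

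Iron-sulfur clusters are inorganic cofactors of iron and sulfide that carry electrons, bind substrates or hold a protein in shape. In mitochondria NFS1, a cysteine desulfurase, takes sulfur from cysteine while held by LYRM4 (also called ISD11), and the cluster is built on the scaffold ISCU with a ferredoxin giving electrons. GLRX5 then carries the cluster onward, and later factors hand it to mitochondrial proteins or supply a sulfur compound to the cytosolic assembly machinery. The CISD proteins hold a cluster themselves: CISD1 (mitoNEET) sits in the outer mitochondrial membrane, CISD2 in the endoplasmic reticulum and the outer mitochondrial membrane, and CISD3 inside the mitochondrion. Loss of NFS1, CISD1 or CISD2 has been linked to sensitivity to ferroptosis, a death by iron-dependent lipid peroxidation, which the series' title names.

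Promoter stretches are shown for the 3 genes that were called lower, ISCU, FDX1 and CISD2, because they moved in the same direction. The table of RefSeq promoters on GRCh38.p14 held all 9 genes, and the 250 bases before each start were searched on both strands. The motifs were picked after the sequences had been seen. Capitals mark every match to any of 6 motifs: the core of the NRF1 (nuclear respiratory factor) site, GCGCANGCG, the cyclic AMP response element, TGACGTCA, the E-box, CACGTG, the antioxidant response element core, TGACNNNGC, the GC box, GGGCGG, and the CCAAT box, CCAAT. Each stretch has 30 bases, written 5′ to 3′ on the strand of the gene, and none lies in an exon of GENCODE release 29. The place of each stretch was set by hand, gene by gene. All 3 promoters held further matches outside it, GC boxes among them, so the capitals are not all of their matches.
ISCU, chr12:108562505-108562534, plus strand, from 91 to 62 bases before the start: aGCGCAGGCGcaaagcttcggTGACGTCAg
FDX1, chr11:110429852-110429881, plus strand, from 96 to 67 bases before the start: gctggccCCGCCCcatgggaccGGGCGGcg
CISD2, chr4:102868906-102868935, plus strand, from 86 to 57 bases before the start: cactcgcccgccgCCAATcggcgcccggca

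The ISCU promoter held an NRF1 core from 90 to 82 and a cyclic AMP response element from 70 to 63 bases before the start. Of the 9 promoters, 2 held the NRF1 core (ISCU and CISD1), against 6.56% of 35116 promoters in the table, and 1 held the cyclic AMP element (ISCU), against 1.65%. The E-box was found in 1 (CISD1), against 6.34%, and the antioxidant core in 2 (ISCU and CISD3), against 10.9%. The GC box was found in all 9, against 42.6% of all promoters, and the GC content of the 250 bases was above the median of all promoters (58.0%) in 8 of the 9, at 54.0% to 83.6%. CCAAT was found in 3 (FDX1, CISD2 and GLRX5), against 32.0%. No motif was found in ISCU, FDX1 and CISD2 and in no other member. These are matches of letters and are not shown to be bound. NFS1 was called higher and so has no stretch here. Its start lies inside the gene ROMO1 on the other strand, and its promoter is still counted among the 9.

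Total counts lay between 17184963 and 21721218 per library, and mitochondrial genes took 4.88% to 8.88% of them in si-NC and 5.73% to 6.30% in si-STRIP2. STRIP2 itself had FPKM values (fragments scaled by exonic length and library total) of 3.19, 3.77 and 3.81 in si-NC and 2.71, 2.53 and 2.58 in si-STRIP2, so that 72.6% of the control level remained. Of 10 colorectal epithelial markers, EPCAM, KRT8, KRT18, KRT19 and CDH1 lay between 23.99 and 212.51 FPKM over the libraries, CDX2 was low, KRT20 lower still, and CDH17, VIL1 and LGALS4 were near 0. These markers also moved: of 7 tested, 2 rose, 4 fell and 1 was not called, with CDH1 at 36.6 FPKM in si-NC against 24.2 (log2 fold change -0.60, edgeR adjusted p = 1.57e-14) and KRT20 at 0.627 against 0.313 (-1.01, edgeR adjusted p = 0.00935). Their part in the results was not tested. The 12 markers of other cell types summed to at most 2.77 FPKM in any library, most of it from COL1A1 (1.89 to 2.55 FPKM). ALB had 2, 7 and 2 counts in si-NC and 27, 23 and 1 in si-STRIP2, and did not pass the filter on low counts. RNA was measured in bulk, so a change in every cell and a larger change in some of the cells cannot be told apart.

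Among the 9 genes, all passed the filter on low counts, 2 were called higher (NFS1 and LYRM4), 3 were called lower (ISCU, FDX1 and CISD2) and 4 were not called. Over all 15687 tested genes 54.8% were called, 27.8% higher and 27.0% lower. For 7 of the 9 the FPKM ranges were separate between groups, as for 58.6% of all tested genes. The members were chosen with this contrast in view, so nothing is read from these shares. The median log2 fold change of the 9 was 0.10, against 0.014 over all tested genes. What sets the members apart from each other is the spread of their changes, from a 2.01-fold higher level of NFS1 to a 1.56-fold lower level of ISCU.

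**Figure D1:**
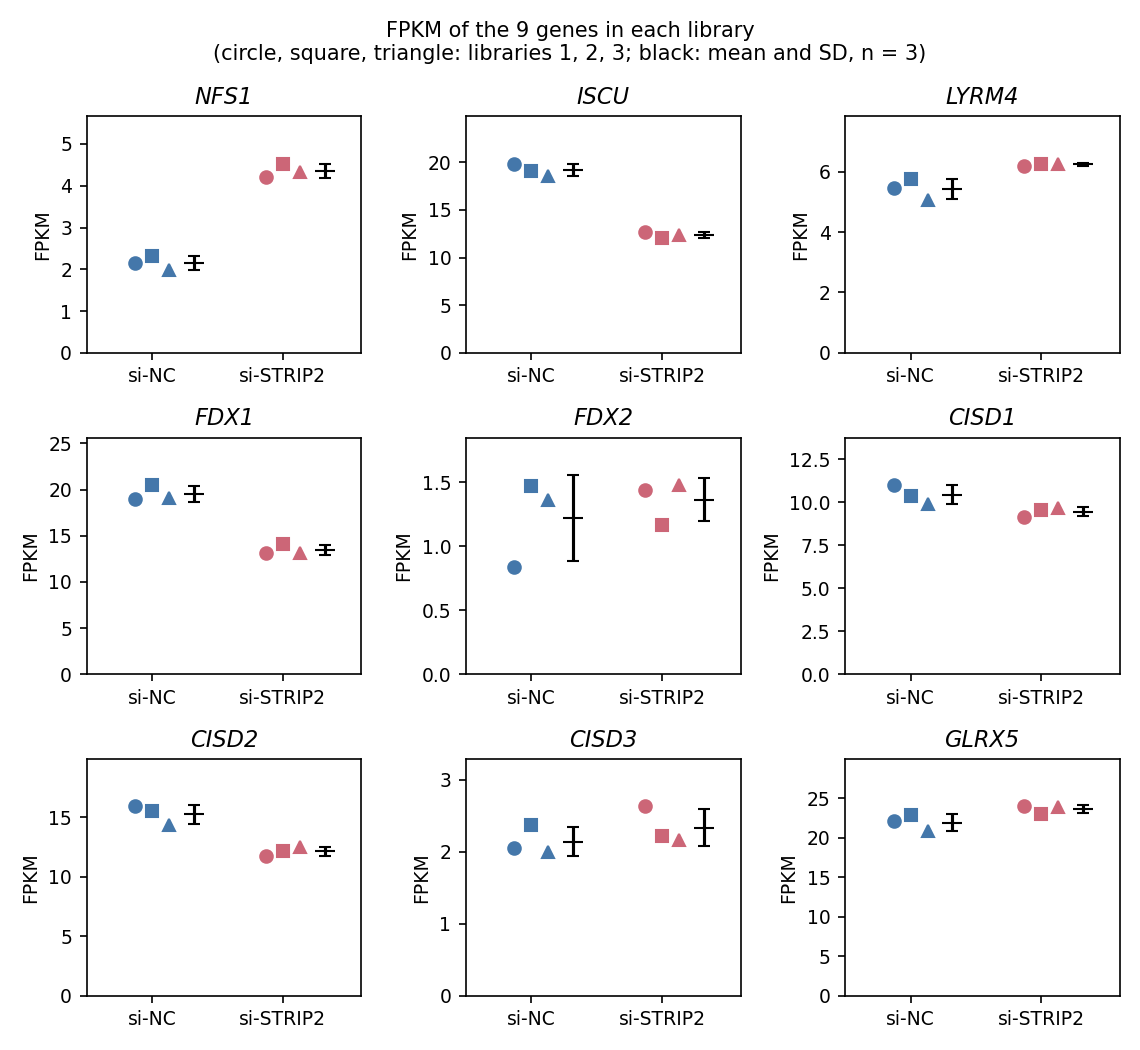
FPKM (vertical axes, starting at 0) of each gene in the 3 si-NC libraries (blue) and the 3 si-STRIP2 libraries (red), with circle, square and triangle for libraries 1, 2 and 3 and the mean and SD (n = 3) in black. NFS1 lies between 1.99 and 2.33 in si-NC and between 4.20 and 4.53 in si-STRIP2, while ISCU and FDX1 are lower in every si-STRIP2 library and the groups of FDX2 and CISD3 overlap.

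The desulfurase NFS1 (ENSG00000244005, GRCh38 chromosome 20, 35668052 to 35699355, minus strand) had FPKM values of 2.16, 2.33 and 1.99 in si-NC and 4.20, 4.53 and 4.32 in si-STRIP2. Every si-STRIP2 library lay above every si-NC library by a wide margin. The mean went from 2.16 ± 0.170 to 4.35 ± 0.167 FPKM (SD, n = 3), and the log2 fold change was 1.01 (standard error 0.079). Of the 4359 genes called higher, 244 had a higher log2 fold change, a rank that only describes a member chosen with this contrast known. The counts behind these values were 282, 243 and 206 in si-NC and 475, 477 and 448 in si-STRIP2. ROMO1, a small mitochondrial inner membrane protein gene, overlaps the first 84 bases of NFS1 on the other strand and held 76.2% as many counts. It had 19.67, 18.27 and 18.65 FPKM in si-NC and 26.25, 23.55 and 20.02 in si-STRIP2, a log2 fold change of 0.30 (standard error 0.093, edgeR adjusted p = 0.00674). Whether counting used strand is not given in the sources used here, and the part of ROMO1 reads in the NFS1 counts was not tested.

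LYRM4 (ENSG00000214113, chromosome 6, 5103629 to 5260950, minus strand), which steadies NFS1, had 5.47, 5.75 and 5.08 FPKM in si-NC and 6.20, 6.27 and 6.26 in si-STRIP2. The 3 si-STRIP2 values were nearly equal and all lay above the si-NC values. The mean went from 5.43 ± 0.337 to 6.24 ± 0.0379 FPKM (SD, n = 3), a log2 fold change of 0.20 (standard error 0.071). This is a 1.15-fold difference, and the call was lost when si-NC replicate 3 was left out (log2 fold change 0.15), when si-STRIP2 replicate 3 was left out (0.19) and under DESeq2 (0.19).

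The scaffold ISCU (ENSG00000136003, chromosome 12, 108562582 to 108569368, plus strand) had 19.87, 19.13 and 18.60 FPKM in si-NC and 12.67, 12.09 and 12.39 in si-STRIP2. The groups were far apart, with 64.5% of the control level in si-STRIP2. The mean went from 19.2 ± 0.638 to 12.4 ± 0.290 FPKM (SD, n = 3), and ISCU fell by 0.64 on the log2 scale with a standard error of 0.047. It rested on 935 to 1909 counts per library, and its pseudogene ISCUP1 had 0 counts in all 6.

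Of the ferredoxins, FDX1 (ENSG00000137714, chromosome 11, 110429948 to 110464884, plus strand) is known for steroid synthesis and protein lipoylation, and FDX2 for giving electrons to cluster assembly on ISCU. FDX1 had 18.95, 20.49 and 19.03 FPKM in si-NC and 13.11, 14.08 and 13.09 in si-STRIP2. Every si-STRIP2 library was below every si-NC library. The mean went from 19.5 ± 0.867 to 13.4 ± 0.566 FPKM (SD, n = 3), 68.9% of the control level, and FDX1 fell by 0.54 on the log2 scale with a standard error of 0.052. The pseudogenes FDX1P1 and FDX1P2 had 0 counts.

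FDX2 (ENSG00000267673, chromosome 19, 10310045 to 10316015, minus strand) had 25, 35 and 32 counts in si-NC and 37, 28 and 35 in si-STRIP2, or 0.84, 1.47 and 1.36 FPKM against 1.44, 1.17 and 1.48. The groups overlapped, and the log2 fold change of 0.18 had a standard error of 0.24. Without si-NC replicate 1, the lowest library, it was -0.054. A same-strand gene without a symbol, ENSG00000167807, overlaps FDX2 over 5965 bases and held 28.6% as many counts, so FDX2 reads may be split between them or left uncounted. A difference of the fitted size could not be told from the spread between libraries at these counts. FDXR, the reductase that passes electrons to both ferredoxins, rose from 10.1 ± 1.03 to 14.5 ± 0.301 FPKM (SD, n = 3), a log2 fold change of 0.53 ± 0.059 (SE; adjusted p = 2.69e-09 by edgeR). It was higher in each si-STRIP2 library (14.20 to 14.74) than in any si-NC library (9.43 to 11.29).

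GLRX5 (ENSG00000182512, chromosome 14, 95533503 to 95544724, plus strand), the glutaredoxin that takes clusters from the scaffold, had the highest FPKM of the 9 genes. It was at 22.13, 22.91 and 20.81 in si-NC and 23.99, 23.02 and 23.95 in si-STRIP2. The groups did not overlap, but the nearest libraries were 22.91 and 23.02. Its log2 fold change, 0.10 (standard error 0.050), was not called. SNHG10, which overlaps it on the other strand, held 9.35% as many counts.

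The CISD genes differed among themselves. CISD2 (ENSG00000145354, chromosome 4, 102868974 to 102892807, plus strand) had 15.89, 15.49 and 14.32 FPKM in si-NC and 11.75, 12.15 and 12.49 in si-STRIP2. All si-STRIP2 values were below all si-NC values, and the mean went from 15.2 ± 0.816 to 12.1 ± 0.370 FPKM (SD, n = 3). CISD2 fell by 0.33 on the log2 scale with a standard error of 0.047, to 79.6% of the control level. The change is a 1.26-fold one, and CISD2 was not called when the test was against a change of 1.2-fold.

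CISD1 (ENSG00000122873, chromosome 10, 58269162 to 58289586, plus strand) had 11.00, 10.39 and 9.91 FPKM in si-NC and 9.15, 9.54 and 9.66 in si-STRIP2. The groups did not overlap, with 9.66 and 9.91 as the nearest libraries. Its log2 fold change of -0.15 had a standard error of 0.067 and was not called. It was called without si-NC replicate 3 (log2 fold change -0.19) and under 4 other alternatives, so it lay close to the threshold. CISD3 (ENSG00000277972, chromosome 17, 38730341 to 38735605, plus strand) had 2.05, 2.37 and 2.00 FPKM in si-NC and 2.63, 2.22 and 2.16 in si-STRIP2, with overlapping groups. Its log2 fold change of 0.13 had a standard error of 0.12. PCGF2 overlaps CISD3 over 1708 bases on the other strand and held 442% as many counts, so the value of CISD3 is uncertain where strand was not used.

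**Figure D2:**
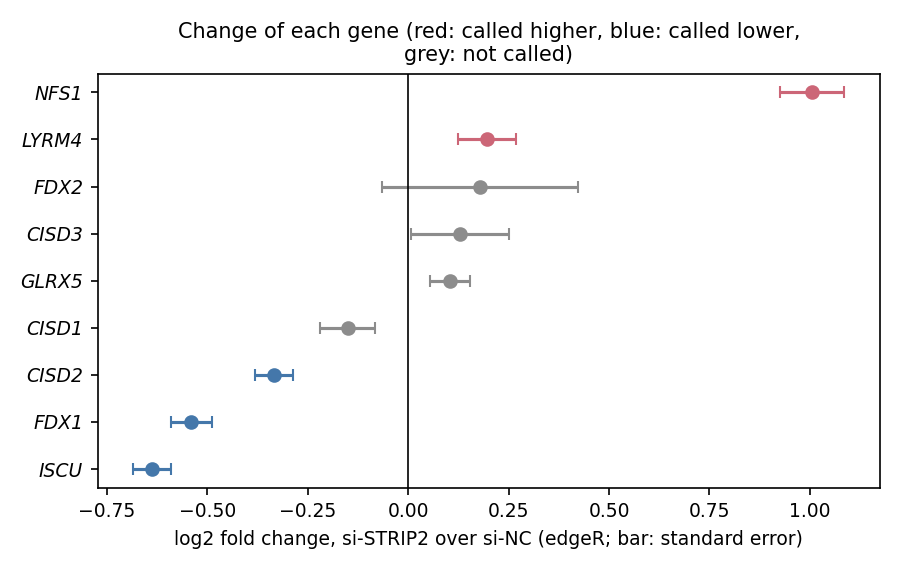
Log2 fold change of si-STRIP2 over si-NC (horizontal axis) for each gene, with the standard error of the edgeR fit as bars, in red for called higher, blue for called lower and grey for not called. NFS1 stands at 1.01 and ISCU, FDX1 and CISD2 at -0.64, -0.54 and -0.33, while the bars of FDX2 cross 0.

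Levels of different genes are compared per exonic length, in FPKM, which depends on the exonic size in the table. In si-NC the order from the highest mean was GLRX5, FDX1, ISCU, CISD2, CISD1, LYRM4, NFS1, CISD3 and FDX2. The libraries of FDX1 and ISCU overlapped, as did those of NFS1 and CISD3, and the other neighbours did not. In si-STRIP2 the order of the means was the same, but NFS1 no longer overlapped CISD3, and ISCU overlapped CISD2 in place of FDX1. The FPKM of the 9 genes summed to 97.3 ± 3.74 (si-NC) and 85.3 ± 0.403 (si-STRIP2; SD, n = 3). Within groups the SD was 2.32% to 7.87% of the mean for NFS1, ISCU, FDX1, CISD1, CISD2 and GLRX5 in either group, and 27.5% for FDX2 in si-NC.

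Because NFS1 was higher and ISCU lower, the balance of desulfurase and scaffold transcripts differed more than the other ratios given here. The ratio of ISCU to NFS1 in FPKM was 9.20, 8.21 and 9.35 in si-NC and 3.02, 2.67 and 2.87 in si-STRIP2. The ratio of LYRM4 to NFS1 went from 2.52 ± 0.0444 to 1.44 ± 0.0473 (SD, n = 3, si-NC and si-STRIP2), so the desulfurase and its binding partner did not change in step. That of GLRX5 to ISCU was 1.14 ± 0.0470 and 1.91 ± 0.0205. The ratio of CISD2 to CISD1 was 1.46 ± 0.0266 and 1.28 ± 0.00970. The CISD genes together summed to 27.8 ± 1.41 FPKM in si-NC and 23.9 ± 0.390 in si-STRIP2, of which CISD2 made up 54.8% ± 0.163 and 50.7% ± 0.727. In these 4 ratios and this sum the groups did not overlap. They follow from the values of the members above and add no separate evidence.

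**Figure D3:**
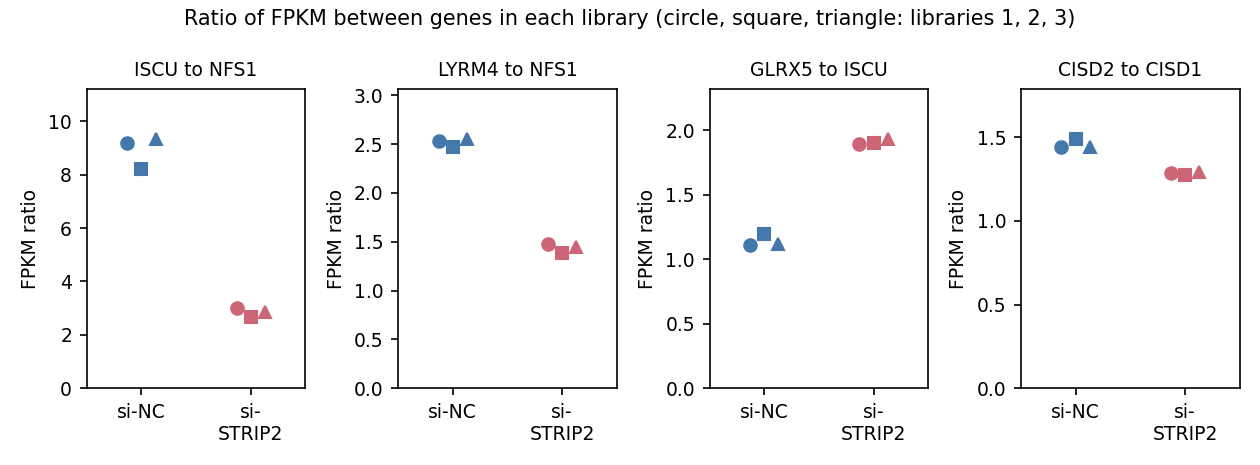
Ratio of FPKM (vertical axes, starting at 0) between pairs of genes in each si-NC library (blue) and si-STRIP2 library (red), with circle, square and triangle for libraries 1, 2 and 3. ISCU to NFS1 lies between 8.21 and 9.35 in si-NC and between 2.67 and 3.02 in si-STRIP2, and none of the 4 ratios overlaps between groups.

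The rest of the pathway was read from lists written for the genes' known roles, with each gene tested over all genes by edgeR. The lists, like the members, were written with earlier results of these data known, so their counts and p-values are a description and no independent support. Each count stands beside the 54.8% of all tested genes that were called (27.8% higher, 27.0% lower) and a median log2 fold change of 0.014, and nothing particular to a list is read from it. Of 17 mitochondrial partners, 7 rose, 5 fell and 5 were not called (70.6% called), and the median log2 fold change was 0.12. After FDXR, the rise with the smallest adjusted p was that of GRPEL1, the nucleotide exchange factor of mitochondrial HSP70, which went from 14.7 ± 0.419 to 18.7 ± 0.354 FPKM (log2 fold change 0.34 ± 0.046, SE; adjusted p = 1.07e-07 by edgeR).

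HSPA9 and HSCB are the chaperone pair that frees clusters from ISCU. HSPA9, the mitochondrial HSP70, fell in every si-STRIP2 library. It was at 112.98, 118.63 and 110.74 FPKM in si-NC and 91.81, 93.59 and 94.54 in si-STRIP2 (log2 fold change -0.29 ± 0.044, SE; adjusted p = 7.10e-07 by edgeR). Its J-domain partner HSCB was at 8.77, 9.06 and 8.44 FPKM in si-NC and 8.50, 7.16 and 6.67 in si-STRIP2, so that 1 si-STRIP2 library lay within the si-NC range (log2 fold change -0.24 ± 0.098, SE; adjusted p = 0.0415 by edgeR). The HSCB call was lost under 8 of 16 alternatives, among them DESeq2 (adjusted p = 0.0985), the replicate block (0.0505) and leaving out si-NC replicate 1 or 2 (log2 fold change -0.23 and -0.22) or si-STRIP2 replicate 2 or 3 (-0.21 and -0.17). Of the late factors, NFU1 (log2 fold change -0.28, edgeR adjusted p = 8.41e-05) and ISCA1 (-0.19, edgeR adjusted p = 0.00172) also fell. Others, outside the naming rule, did not all go the same way. IBA57 fell (-0.36, edgeR adjusted p = 0.00327), and ISCA2 (0.071), BOLA3 (0.18) and NUBPL (0.12) were not called. BOLA1 rose (0.52, edgeR adjusted p = 0.0128), a call lost under 4 of 16 alternatives. NFU1 lay between 23.07 and 23.94 FPKM in si-NC and between 18.74 and 20.45 in si-STRIP2.

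Of 14 genes of the cytosolic assembly machinery, 12 were tested, 7 rose, 2 fell and 3 were not called (75.0% called), with a median log2 fold change of 0.19. BOLA2 and BOLA2B, near-identical copies, did not pass the filter. MMS19 and CIAO1 belong to the complex that places clusters into cytosolic and nuclear proteins. MMS19 rose from 9.35 ± 0.295 to 13.4 ± 0.223 FPKM (log2 fold change 0.52 ± 0.047, SE; adjusted p = 2.71e-11 by edgeR) and CIAO1 from 15.8 ± 0.263 to 21.2 ± 0.868 FPKM (log2 fold change 0.41 ± 0.043, SE; adjusted p = 5.99e-10 by edgeR). Of the scaffold pair NUBP1 and NUBP2, NUBP2 rose (log2 fold change 0.35, edgeR adjusted p = 6.66e-05) and NUBP1 fell (-0.18, edgeR adjusted p = 0.0335). YAE1, an adaptor for cluster insertion, fell as well (-0.21, edgeR adjusted p = 0.0240). Both falls were weak calls: each was lost under DESeq2 (adjusted p = 0.0783 for NUBP1 and 0.0638 for YAE1) and when 1 of several libraries was left out. For NUBP1 these were si-NC replicates 1 and 2 (log2 fold change -0.18 and -0.16) and si-STRIP2 replicates 1 and 2 (-0.17 and -0.15), and the call was also lost with no filter on low counts (edgeR adjusted p = 0.0666). For YAE1 they were si-NC replicate 1 (-0.20) and si-STRIP2 replicates 1 and 2 (-0.19 and -0.18).

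Of 13 mitochondrial proteins that carry clusters, 9 rose, 0 fell and 4 were not called (69.2% called), with a median log2 fold change of 0.11. The number called was below 9 in 13 of 16 alternatives, with a median of 6 over them. It was 6 without si-NC replicate 3, without si-STRIP2 replicate 2 and without si-STRIP2 replicate 3. NDUFS7, a complex I subunit, went from 1.46, 1.52 and 1.35 to 2.21, 2.23 and 2.22 FPKM (log2 fold change 0.61, edgeR adjusted p = 3.73e-07). SDHB, the cluster subunit of succinate dehydrogenase, was at 33.40 to 36.54 FPKM in si-NC and 40.76 to 44.00 in si-STRIP2 (log2 fold change 0.27, edgeR adjusted p = 5.02e-06). CDK5RAP1, a mitochondrial tRNA-modifying enzyme, had a log2 fold change of 0.27 (edgeR adjusted p = 5.53e-05). The largest rise after NDUFS7 was 1.27-fold, that of NDUFV2 (a gene outside the naming rule), and 1 of the 13 was called when tested against a 1.2-fold change.

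Of 25 cytosolic and nuclear cluster proteins, 22 were tested, 10 rose, 4 fell and 8 were not called (63.6% called), with a median log2 fold change of 0.23. The 3 rises with the smallest adjusted p were those of enzymes of DNA replication: PRIM2, the large primase subunit, from 7.73 to 13.1 FPKM (log2 fold change 0.76, edgeR adjusted p = 8.43e-15), POLE (0.65, edgeR adjusted p = 2.83e-14) and POLA1 (0.59, edgeR adjusted p = 3.33e-13). PPAT, which opens purine synthesis, fell from 35.2 to 27.6 FPKM (log2 fold change -0.35, edgeR adjusted p = 2.38e-09). REV3L, a polymerase of damage bypass, fell by 0.30 on the log2 scale (edgeR adjusted p = 1.61e-06) and ABCE1, the ribosome recycling factor, by 0.14 (edgeR adjusted p = 0.00334).

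The lipoylation list, in which FDX1 acts upstream of lipoyl synthase, had 5 rises, 1 fall and 6 genes not called of 12, with a median log2 fold change of 0.077. LIAS, the lipoyl synthase, lay between 3.25 and 3.54 FPKM in si-NC and between 3.33 and 3.81 in si-STRIP2 (log2 fold change 0.072, edgeR adjusted p = 0.306). PDHA1, a subunit of pyruvate dehydrogenase, rose from 13.4 to 20.9 FPKM (log2 fold change 0.64, edgeR adjusted p = 2.28e-14), and the lipoylated subunits DLST (0.38, edgeR adjusted p = 4.05e-09) and DLAT (0.34, edgeR adjusted p = 2.67e-08) rose too. DLD, the shared dehydrogenase of these complexes, fell from 38.7 to 28.1 FPKM (log2 fold change -0.47, edgeR adjusted p = 1.74e-11).

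Of the genes that sense iron, ACO1, whose protein is an RNA-binding regulator when it lacks a cluster, lay between 8.18 and 8.76 FPKM in si-NC and between 8.12 and 8.32 in si-STRIP2 (log2 fold change -0.030, edgeR adjusted p = 0.609). ACO1 is also counted among the cytosolic and nuclear cluster proteins. IREB2 was lower (log2 fold change -0.13 ± 0.042, SE; adjusted p = 0.0105 by edgeR), with 12.05 to 12.83 FPKM in si-NC and 11.05 to 11.68 in si-STRIP2. FBXL5, the iron-sensing ligase that removes IREB2 protein, was at 10.42 to 10.89 FPKM and 9.78 to 10.08 (log2 fold change -0.11, edgeR adjusted p = 0.0629). So 1 of these 3 was called (33.3%), with a median log2 fold change of -0.11. Leaving out si-NC replicate 3 gave 2 calls, while leaving out si-STRIP2 replicate 1 gave 0 (IREB2 -0.095, edgeR adjusted p = 0.0923).

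**Figure D4:**
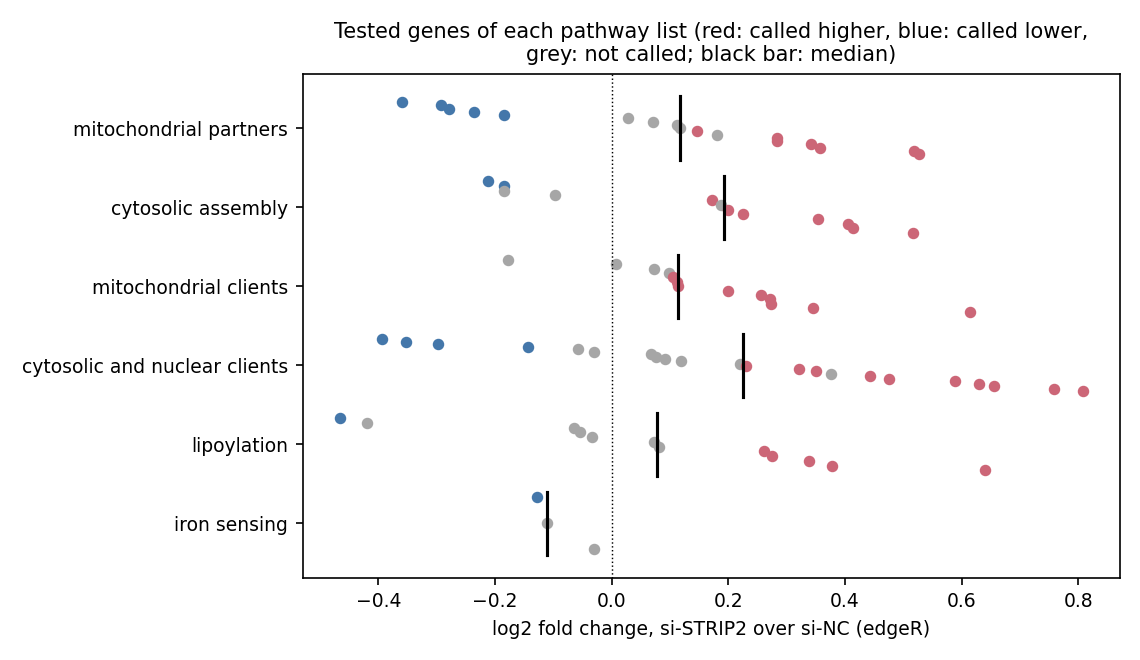
Log2 fold change of si-STRIP2 over si-NC (horizontal axis) of every tested gene in the 6 pathway lists (rows), in red for called higher, blue for called lower and grey for not called, with the list's median as a black bar. The mitochondrial partners spread to both sides, with 7 red and 5 blue points, and the mitochondrial cluster proteins have 9 red points and 0 blue.

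The genes whose log2(FPKM + 1) followed NFS1 most closely over the 6 libraries, among 6975 genes averaging 5 FPKM or more in si-NC or si-STRIP2, were PRKCD, CCNA2 and POLR1E, each with Pearson r = 1.00 after rounding. For ISCU they were C1orf43, WDR45B and ZFAND1, also with r = 1.00, among 6974 genes. All 6 share the difference between the groups with the member they follow: 1320 genes had r over 0.95 with NFS1 and 1266 with ISCU, so these names describe a large set.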

How the data were processed

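Poly(A) RNA from 6 HCT116 libraries was sequenced with a directional kit, per the labels' protocols. The submitters' processing notes name cutadapt 1.9.1, HISAT2 2.2.1, HTSeq 0.6.1 and GRCh38.p13. The strand setting and annotation release are not given in the sources used here. The authors deposited whole-number counts and FPKM values per gene. Deposited FPKM differed from counts per deposited exonic size and library total by at most 0.005.

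Counts were tested with edgeR 4.0.16 in R 4.3.3: filterByExpr (minimum count 10), TMM scaling, quasi-likelihood F test with group as the only term, 2-sided, Benjamini-Hochberg over 15687 genes. DESeq2 1.42.0 and limma 3.58.1 served as alternatives. The test was tested on simulated data. Far fewer genes were changed there than were called here, and no result in the text rests on it. Standard errors are the absolute log2 fold change over the square root of F.

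The members and lists were chosen with earlier results of these data known. Named are the 9 members, their direct partners FDXR and HSCB, the 3 called genes with the smallest adjusted p per list and direction, every gene of lists of 3, and the 3 genes most correlated with the top member in each direction. Markers, STRIP2 and overlapping genes serve as checks. A few genes within this rule are left unreported.

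Whether equal replicate numbers pair libraries is not stated. Deviations of same-numbered libraries correlated at -0.086 to -0.013 across genes, and those of other pairs at -0.040 to 0.11. No shared deviation of same-numbered libraries was seen. Because deviations were taken from the mean of each group of 3, these values cannot exclude pairing.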

Additional observations from a re-analysis of the deposited data

How the results depend on the processing

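Each result was recomputed under 16 alternatives. NFS1, ISCU and FDX1 kept their direction and call in all of them, with log2 fold changes from 0.76 to 1.05, from -0.66 to -0.59 and from -0.57 to -0.51. CISD3 and GLRX5 were never called. LYRM4 was not called under DESeq2 (0.19) or against a 1.2-fold change (0.20), and ranged from 0.15 to 0.23 with each library left out. CISD2 was not called against a 1.2-fold change (-0.33). CISD1 was called with DESeq2 size factors (-0.16), with a filter of 1 FPKM (-0.16), under limma on log2(FPKM + 1) (-0.13) and with a pseudocount of 0.1 (-0.14), and ranged from -0.19 to -0.10 with each library left out. FDX2 was at -0.054 without si-NC replicate 1, and ranged from there to 0.33. The cause was not tested.

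Against a 1.2-fold change 3723 genes were called, a stricter test by construction, with 1 mitochondrial partner, 2 cytosolic assembly genes, 1 mitochondrial cluster protein, 8 cytosolic and nuclear ones and 0 iron-sensing genes. Mitochondrial cluster proteins called, 9 in the reported fit, were 5 under limma with a pseudocount of 0.1 and 6 under 8 alternatives: DESeq2 size factors, DESeq2, no filter on low counts, limma on log2(FPKM + 1), the replicate block, and leaving out si-NC replicate 3, si-STRIP2 replicate 2 or si-STRIP2 replicate 3. Iron-sensing calls were 2 with upper-quartile scaling and 2 with the filter of 1 FPKM, and ranged from 0 to 2 with each library left out. With the replicate number as a replicate block, 8293 genes were called against 8599, though it is not stated that equal numbers pair libraries. The low counts of FDX2 limit what can be seen of it.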
